A study of Homo sapiens with 12 samples.

Results

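The respiratory chain and the ATP synthase of the mitochondrial inner membrane were described here through the RNA of their nuclear-encoded subunits. Members were the genes whose symbols name a subunit of complex I (NDUFA, NDUFB, NDUFC, NDUFS, NDUFV and NDUFAB1), complex II (SDHA to SDHD), complex III (the UQCR genes and CYC1), complex IV (the COX4 to COX8 genes) or complex V (the ATP5 genes). The symbol rule matched 208 genes, of which 117 pseudogenes, 1 antisense RNA and 1 divergent non-coding RNA were left out. This left 89 of the 60707 genes of the count table: 38 of complex I, 4 of complex II, 10 of complex III, 17 of complex IV and 20 of complex V. The genes left out held 3231 counts against 3101471 in the members, or 0.104% of the members' counts.

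Complexes I and II pass electrons from NADH and succinate to ubiquinone, complex III passes them on to cytochrome c, and complex IV reduces oxygen with them. Complexes I, III and IV pump protons, and complex V, the ATP synthase, lets protons return through a rotor of c subunits and uses the energy to make ATP. Every complex except complex II also holds subunits encoded in the mitochondrial genome, so its assembly draws on both genomes. Transcription factors known for nuclear respiratory genes include NRF1, the ETS factor GABP and YY1.

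RNA was sequenced from Raji cells, an established human Burkitt lymphoma B-cell line, 24 h after treatment with FX1, a small molecule made to inhibit the transcriptional repressor BCL6, or with its vehicle DMSO. Cells came from a GFP-high or a GFP-low gate, which gave 4 groups of 3 libraries: GFP-high with DMSO, GFP-high with FX1, GFP-low with DMSO and GFP-low with FX1. The genotype of all 12 libraries is labelled Smarca4+/+, and the design text names an auxin-inducible degron for SMARCA4, an ATPase of the SWI/SNF chromatin remodeller. The labels do not say how GFP relates to SMARCA4, whether auxin was given or at what dose FX1 was used, so the gates are called only by their GFP level. Degradation of a protein is not read by its RNA, so the state of SMARCA4 was not checked here.

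Total counts lay between 20454028 and 42556661 per library, and 84 of the 89 members passed the filter on low counts. The 5 that did not were the tissue-restricted isoforms COX6A2, COX7A1 and COX7B2, each with 0 counts in all libraries, COX6B2 with 32 counts in all and COX8C with 14. A count of 0 allows up to 3 counts, or 0.0705 to 0.147 CPM in the deepest and shallowest library, by counting error alone. All 6 B-cell markers were present, and their summed level in CPM, a count scaled to its library's total, moved with the groups. It was 2460 to 2480 in GFP-high DMSO, 2190 to 2210 in GFP-high FX1, 2400 to 2420 in GFP-low DMSO and 1900 to 1910 in GFP-low FX1. The 7 myeloid markers, with S100A8 at 0, summed to 1.86 to 2.25, 2.17 to 2.75, 2.59 to 3.66 and 6.40 to 6.79 CPM in the same order, and the 6 epithelial and stromal markers, with KRT18 at 0, to 8.13 to 9.44, 8.14 to 8.84, 12.5 to 13.9 and 16.2 to 18.4 CPM. The 8 T and NK markers, with CD8A at 0, summed to 5.88 to 6.99, 3.83 to 4.03, 4.79 to 6.22 and 2.69 to 3.22 CPM. The 5 striated muscle markers summed to 0.145 to 0.237, 0.264 to 0.542, 0.165 to 0.518 and 0.489 to 0.501 CPM. The part of these shifts in the results below was not tested. These marker sums are scaled to library totals alone, while the members' levels below are TMM-scaled CPM. In bulk RNA, fewer cells of a kind and less RNA per cell cannot be told apart. Whether a group's 3 libraries were grown as separate cultures is not stated, so the p-values cover library-to-library spread, and that spread may be technical.

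Nuclear subunit genes as a set were well expressed, with a median of the mean level of 6.11 on the log2 CPM scale against 3.37 over all 17859 genes tested. Their transcripts were short, with a median longest transcript of 1510 bases against 2666. Their median transcript GC content was 47.72% against 47.65% for all genes, and single members ranged from 35.0% to 65.0%.

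FX1 raised many subunit genes in GFP-high cells and fewer in GFP-low cells, by small amounts in both. In GFP-high cells 50 of the 84 tested members rose and 11 fell at an adjusted p under 0.05 in edgeR's quasi-likelihood test, while 68.4% of all genes tested passed the same threshold, 33.8% as higher and 34.6% as lower. The members' median log2 change was 0.16 against -0.0086 over all genes. In GFP-low cells 38 members rose and 23 fell, against 68% of all genes called, 33.7% higher and 34.3% lower. The median there was 0.060 against -0.0056. Scaling without mitochondrial-genome genes and genes above 1% of counts, or leaving out any GFP-high DMSO library, moved the GFP-low median over all genes to between -0.049 and -0.048 and that of the members to between 0.014 and 0.018, with 35 higher and 29 or 30 lower. A fit to just the GFP-low groups gave medians of 0.055 for the members and -0.0010 for all genes. In that fit 36 members were higher and 23 lower, against 69.8% of all genes called. Why leaving out a GFP-high DMSO library moved the GFP-low values was not tested. Where 50 counts in 3 libraries were required, 47 of 82 members rose and 16 fell in GFP-high cells, against 79.0% of all genes called. With that minimum 38 members rose and 25 fell in GFP-low cells, against 79.9% of all genes. No member changed by as much as 2-fold in either gate.

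The FX1 effects in the gates come from separate libraries and can be set side by side, and where a pair of log2 values is given without a gate, GFP-high comes first. Of the 84 members, 33 rose in both gates, 7 fell in both, 9 rose in GFP-high and fell in GFP-low cells, and 1 did the reverse. Another 8 rose and 3 fell in GFP-high cells alone, 4 rose and 7 fell in GFP-low cells alone, and 12 passed the threshold in neither. Passing in a single gate does not show a difference between gates, which is tested below. The same joint counts were not made over all genes tested, of which 68.4% passed in GFP-high and 68% in GFP-low cells. Whether the members' joint counts differ from those of other genes is therefore not known.

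**Figure D1:**
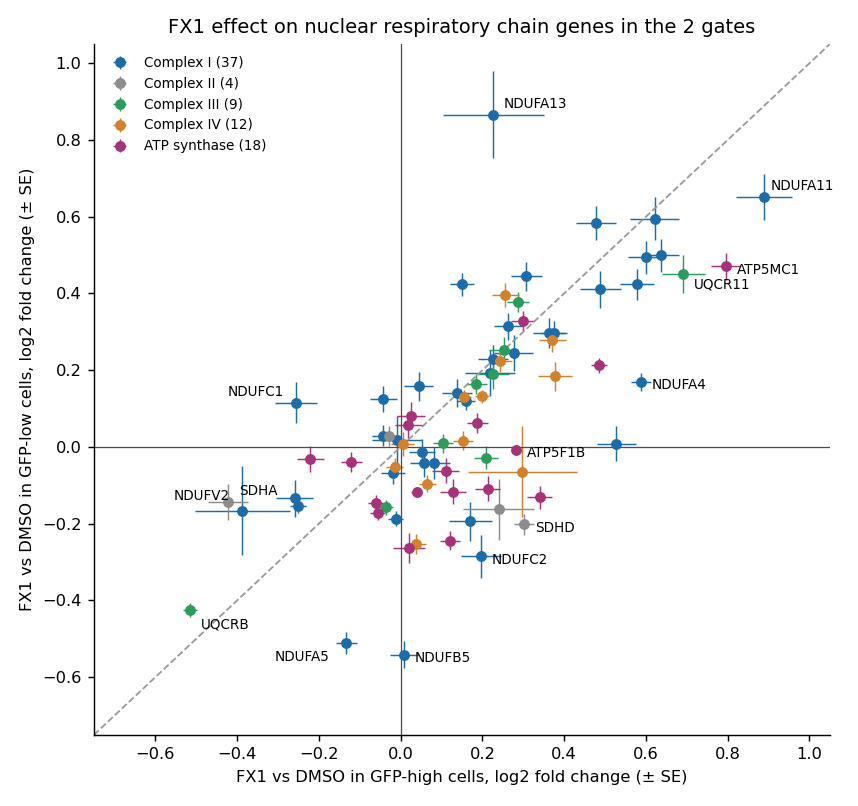
The FX1 effect in GFP-low cells (vertical axis, log2 fold change) is plotted against that in GFP-high cells (horizontal axis), with SE bars, for the 80 members that average 2 or more in log2 CPM, coloured by complex. NDUFA11 and ATP5MC1 sit farthest right at 0.89 and 0.80, UQCRB is low in both gates, and NDUFA5 and NDUFB5 are low in GFP-low cells, at -0.51 and -0.54.

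Promoter sequences (250 bases before to 50 after the start, from RefSeq on GRCh38.p14) were matched for 70 of the 89 members. The ETS core CCGGAAG was found on either strand in 20 of the 70, or 28.6%, against 10.7% of all 27305 promoters of that length. The NRF1 motif (GCGCA, any base, GCGC) was in 17, or 24.3% against 6.28%. The YY1 motif AANATGGCG was in 16, or 22.9% against 3.37%. The antioxidant response element core TGACNNNGC was in 10, or 14.3% against 13.6%. A match is a description of letters in this window and says nothing of a factor's binding, and overlaps between motifs were not removed. The 27305 promoters were not limited to the genes tested, nor matched to the members for level or promoter GC content. The higher shares therefore cannot be called particular to respiratory genes. Among the 20 tested members with an ETS core, 16 rose under FX1 in GFP-high cells and 4 passed in neither direction, and 12 rose and 5 fell in GFP-low cells. Among the 46 without one, 24 rose and 10 fell in GFP-high cells, and 20 rose and 12 fell in GFP-low cells. With the antioxidant response element core, 6 of 10 rose and 0 fell in GFP-high cells, and 8 rose and 0 fell in GFP-low cells. Of the 16 with the NRF1 motif, 10 rose and 2 fell in GFP-high cells and 8 rose and 4 fell in GFP-low cells, and of the 16 with the YY1 motif, 10 rose and 1 fell, and 8 rose and 2 fell. The differences between motifs were not tested. Such counts were not made over all genes whose promoters hold the same motif, so these splits cannot be called particular to the members.

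The 4 promoters below show such matches in UQCR11, NDUFB7, COX5B and COX8A, which rose under FX1 in both gates; they were chosen after their values were seen. Each runs 5′ to 3′ on its gene's strand and stops before the first base of any exon in the count table's annotation. Distances are counted from the RefSeq start, which the printed stretches of NDUFB7, COX5B and COX8A reach and that of UQCR11 misses by 11 bases. Capitals mark the ETS core on either strand and, in UQCR11, an NRF1 motif that begins 29 bases before the RefSeq start. The stretches are chr19:1605474-1605712 (minus strand) for UQCR11, chr19:14572067-14572316 (minus strand) for NDUFB7, chr2:97645812-97646061 (plus strand) for COX5B and chr11:63974370-63974619 (plus strand) for COX8A. In UQCR11 the ETS cores begin 117 and 97 bases before that start, and those of NDUFB7, COX5B and COX8A begin 24, 37 and 18 bases before theirs.
UQCR11: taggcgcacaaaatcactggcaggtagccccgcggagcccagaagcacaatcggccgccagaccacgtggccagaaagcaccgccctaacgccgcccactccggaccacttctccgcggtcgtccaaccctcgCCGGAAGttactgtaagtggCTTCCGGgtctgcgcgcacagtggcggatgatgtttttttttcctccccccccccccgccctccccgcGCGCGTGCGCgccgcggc
NDUFB7: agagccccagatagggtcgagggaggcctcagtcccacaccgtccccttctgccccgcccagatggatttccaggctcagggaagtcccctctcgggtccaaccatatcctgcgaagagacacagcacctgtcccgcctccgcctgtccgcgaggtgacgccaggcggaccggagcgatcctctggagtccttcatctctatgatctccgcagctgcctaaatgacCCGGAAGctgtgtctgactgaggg
COX5B: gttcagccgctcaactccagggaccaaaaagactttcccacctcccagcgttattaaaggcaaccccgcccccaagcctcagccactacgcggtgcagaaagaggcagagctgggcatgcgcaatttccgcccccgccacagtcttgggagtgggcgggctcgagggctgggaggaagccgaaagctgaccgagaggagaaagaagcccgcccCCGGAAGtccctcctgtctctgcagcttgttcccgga
COX8A: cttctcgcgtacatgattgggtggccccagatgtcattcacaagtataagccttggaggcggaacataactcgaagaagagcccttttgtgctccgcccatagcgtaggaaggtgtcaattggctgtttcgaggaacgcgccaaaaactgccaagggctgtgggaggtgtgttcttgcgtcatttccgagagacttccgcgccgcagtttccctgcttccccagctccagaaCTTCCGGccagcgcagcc

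Complex I, the NADH dehydrogenase, is built from core subunits that carry the redox groups and from accessory subunits around them. In GFP-high cells 21 of its 38 members rose under FX1 and 5 fell, and in GFP-low cells 22 rose and 8 fell. Of the 31 accessory subunits, with NDUFA4 counted among them by its name, 18 rose and 3 fell in GFP-high cells and 19 rose and 5 fell in GFP-low cells. Of the 7 core subunits, 3 rose and 2 fell in GFP-high cells, and 3 rose and 3 fell in GFP-low cells.

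NDUFA11, an accessory subunit of the membrane arm (ENSG00000174886.14, hg38 chromosome 19, 5891276 to 5904006, minus strand), had the largest rise of complex I in GFP-high cells. Its level was 11.2, 11.2 and 11.8 CPM with DMSO and 21.8, 20.6 and 20.7 CPM with FX1 in GFP-high cells. Its level in GFP-low cells was 16.7, 17.8 and 17.5 CPM with DMSO and 27.6, 28.1 and 25.7 CPM with FX1. All FX1 libraries lay above all DMSO libraries of the same gate, and GFP-low libraries lay above GFP-high libraries under the same treatment. The log2 change was 0.89 ± 0.068 (SE, 3 libraries per group, edgeR adjusted p = 6.7e-29) in GFP-high cells and 0.65 ± 0.060 (edgeR adjusted p = 7.1e-22) in GFP-low cells. Its transcript has a GC content of 62.7%, and with the GC and length trend over all genes removed the change in GFP-low cells was 0.23.

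NDUFA8, an accessory subunit on the intermembrane-space side that is folded by disulfide bonds, was second in GFP-high cells among those of complex I that met the level minimum. In GFP-high cells it read 38.8, 35.2 and 32.7 CPM with DMSO and 57.2, 53.3 and 55.04 CPM with FX1, and in GFP-low cells 35.4, 36.1 and 35.6 CPM with DMSO and 51.3, 51.6 and 48.02 CPM with FX1. The DMSO and FX1 ranges did not overlap in either gate, and the gates overlapped under DMSO. On the log2 scale FX1 changed it by 0.64 ± 0.043 and 0.50 ± 0.043 (edgeR adjusted p = 4.2e-35 and 2.4e-24). NDUFB7, an accessory subunit whose promoter is printed above, rose by 0.62 and 0.59, NDUFB2 by 0.60 and 0.49, and NDUFA3 by 0.58 and 0.42; these 3 were named after their values were seen. After GC and length adjustment NDUFB7 was at 0.34 in GFP-low cells.

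NDUFA13, an accessory subunit also known as GRIM-19, moved in GFP-low cells. It read 4.203, 4.44 and 4.81 CPM with DMSO and 8.501, 7.91 and 7.94 CPM with FX1 in GFP-low cells, and 4.55, 4.47 and 4.04 CPM with DMSO and 5.46, 4.99 and 4.83 CPM with FX1 in GFP-high cells. The rise in GFP-low cells was 0.87 ± 0.11 (edgeR adjusted p = 1.8e-12), the value in GFP-high cells was 0.23 ± 0.12 (edgeR adjusted p = 0.093), and the difference between gates was 0.64 ± 0.17 (edgeR adjusted p = 0.001). Of its exon bases 21.0% overlap another gene on the same strand, so how reads were shared between these genes is uncertain.

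NDUFA4 carries a complex I name, but its protein is now known as a subunit of cytochrome c oxidase (ENSG00000189043.10, hg38 chromosome 7, 10931943 to 10940153, minus strand). The complex I counts and sums given here include NDUFA4, and those of complex IV do not. Its level in GFP-high cells was 108, 116 and 112 CPM with DMSO and 167, 166 and 173 CPM with FX1. GFP-low libraries were at 136, 131 and 135 CPM with DMSO and 151, 152 and 149 CPM with FX1. FX1 libraries were higher in both gates, and the step was larger in GFP-high cells. The log2 change was 0.59 ± 0.024 in GFP-high and 0.17 ± 0.024 in GFP-low cells, a difference of -0.42 ± 0.034 (edgeR adjusted p = 1.2e-25). After the GC and length trend was taken out, the changes were 0.74 and 0.47, and the difference -0.27.

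Of complex I, NDUFA5, NDUFB1 and NDUFV1 fell in both gates. NDUFV1, the core subunit that binds NADH and was named after its values were seen, changed by -0.25 ± 0.020 in GFP-high and -0.15 ± 0.019 in GFP-low cells on the log2 scale, or -0.45 and -0.46 after GC and length adjustment. NDUFV2, a core subunit of the NADH-oxidising module that carries an iron-sulfur cluster, read 7.32, 6.38 and 6.63 CPM with DMSO and 5.35, 5.12 and 4.98 CPM with FX1 in GFP-high cells, a change of -0.39 ± 0.12 (edgeR adjusted p = 0.0017). Once the GC and length trend was removed, it was -0.14 (edgeR adjusted p = 0.27), and 28.4% of its exon bases overlap another gene on the same strand. NDUFB1, a small accessory subunit of the membrane arm, changed by -0.26 ± 0.045 in GFP-high cells and -0.13 ± 0.047 in GFP-low cells on the log2 scale, and these became -0.053 (edgeR adjusted p = 0.3) and 0.26 without the trend. Without GFP-low DMSO replicate 1 or GFP-low FX1 replicate 1, the NDUFB1 change in GFP-low cells was -0.088 and -0.10 (edgeR adjusted p = 0.14 and 0.093).

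NDUFB5 and NDUFA5, accessory subunits of the membrane and matrix arms, had the largest falls of all members in GFP-low cells. NDUFB5 (ENSG00000136521.13, hg38 chromosome 3, 179604690 to 179627647, plus strand) read 65.8, 66.04 and 71.97 CPM with DMSO and 46.7, 46.3 and 46.9 CPM with FX1 in GFP-low cells. In GFP-high cells it read 67.1, 67.6 and 68.2 CPM with DMSO and 67.4, 70.1 and 66.6 CPM with FX1. The 3 GFP-low FX1 libraries were below the other 9, which overlapped. The log2 change was -0.54 ± 0.036 (edgeR adjusted p = 4.2e-35) in GFP-low and 0.0074 ± 0.034 (edgeR adjusted p = 0.86) in GFP-high cells. NDUFA5 read 103, 97.4 and 104 CPM with DMSO and 70.4, 72.9 and 69.7 CPM with FX1 in GFP-low cells, a change of -0.51 ± 0.029 (edgeR adjusted p = 5.3e-44), and changed by -0.13 ± 0.026 in GFP-high cells. These transcripts have a low GC content, 39.8% for NDUFB5 and 35.0% for NDUFA5. Adjusted for GC and length, the changes in GFP-low cells were -0.30 and -0.16, and NDUFA5 in GFP-high cells was at -0.051 (edgeR adjusted p = 0.064). With that adjustment the lowest GFP-low values were those of NDUFV1, -0.46, and ATP5MF, -0.32, so the order of the falls did not hold.

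Complex II, succinate dehydrogenase, links the citric acid cycle to the chain and is the one complex encoded wholly in the nucleus. Its 4 genes did not move as a unit. In GFP-high cells SDHC and SDHD rose and SDHA fell, and in GFP-low cells SDHA and SDHD fell. After GC and length adjustment 2 rose and 1 fell in GFP-low cells.

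SDHA, the flavoprotein that oxidises succinate (ENSG00000073578.17, hg38 chromosome 5, 218241 to 257082, plus strand), read 41.3, 36.7 and 37.6 CPM with DMSO and 29.7, 28.1 and 27.99 CPM with FX1 in GFP-high cells. In GFP-low cells it read 38.5, 37.4 and 37.9 CPM with DMSO and 34.2, 36.1 and 32.4 CPM with FX1. FX1 libraries were lower than DMSO libraries in GFP-high cells by a wider margin than in GFP-low cells. The FX1 effects were -0.42 ± 0.048 (edgeR adjusted p = 2.1e-15) and -0.14 ± 0.047 (edgeR adjusted p = 0.0043), and the second was -0.11 (edgeR adjusted p = 0.053) without GFP-low FX1 replicate 3. The difference between gates was 0.28 ± 0.068 (edgeR adjusted p = 0.00032), and 0.18 without GFP-high DMSO replicate 1. Another gene on the same strand overlaps 21.6% of SDHA's exon bases.

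SDHD, a membrane anchor of complex II that helps to bind ubiquinone (ENSG00000204370.13, hg38 chromosome 11, 112086824 to 112120016, plus strand), moved in opposite directions in the gates. Its level in GFP-high cells was 118, 118 and 116 CPM with DMSO and 143, 143 and 148 CPM with FX1. Its level in GFP-low cells was 114, 117 and 121 CPM with DMSO and 104, 99.1 and 103 CPM with FX1. The DMSO libraries of both gates shared a range, with the GFP-high FX1 libraries above it and the GFP-low FX1 libraries below it. FX1 changed its level by 0.30 ± 0.025 and -0.20 ± 0.026, a difference of -0.50 ± 0.037 (edgeR adjusted p = 2.7e-30). With the GC-length trend removed SDHD rose in both gates, by 0.49 and 0.14, and the difference was -0.35. SDHC, the other anchor, rose by 0.24 ± 0.087 in GFP-high cells, or 0.18 (edgeR adjusted p = 0.093) without GFP-high DMSO replicate 3, and SDHB, the iron-sulfur subunit, passed the threshold in neither gate at -0.027 and 0.029.

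Complex III, the cytochrome bc1 complex, had 7 of 10 members higher and 1 lower under FX1 in GFP-high cells, and 5 higher and 2 lower in GFP-low cells, or 5 higher and 4 lower there after GC and length adjustment. UQCR11, a small accessory subunit (ENSG00000127540.12, hg38 chromosome 19, 1597169 to 1605473, minus strand), read 22.3, 19.9 and 22.7 CPM with DMSO and 34.5, 33.7 and 35.96 CPM with FX1 in GFP-high cells. GFP-low libraries read 27.4, 27.6 and 28.2 CPM with DMSO and 37.6, 37.4 and 38.8 CPM with FX1. Every FX1 library lay above every DMSO library of its gate. The log2 changes were 0.69 ± 0.053 (edgeR adjusted p = 5.5e-29) and 0.45 ± 0.050 (edgeR adjusted p = 1.8e-16).

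UQCRB, a subunit that takes part in ubiquinone binding (ENSG00000156467.10, hg38 chromosome 8, 96222947 to 96235546, minus strand), had the largest fall of all members in GFP-high cells. It read 373, 384 and 376 CPM with DMSO and 266, 264 and 263 CPM with FX1 in GFP-high cells. In GFP-low cells it read 274, 265 and 283 CPM with DMSO and 205, 199 and 207 CPM with FX1. FX1 libraries were below DMSO libraries in both gates, and GFP-low below GFP-high under each treatment. On the log2 scale FX1 changed it by -0.52 ± 0.017 (edgeR adjusted p = 1.2e-79) and -0.43 ± 0.018 (edgeR adjusted p = 9.7e-61). After the GC and length trend was taken out, the second was -0.18.

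CYC1, which carries the haem of cytochrome c1, and UQCRC2, a core protein without a redox group, changed in size or direction once the GC trend was removed. CYC1, at 64.5% GC, read 96.2, 96.6 and 93.8 CPM with DMSO and 115, 118 and 117 CPM with FX1 in GFP-high cells, and 109, 113 and 108 CPM with DMSO and 140.3, 145 and 145 CPM with FX1 in GFP-low cells. It rose by 0.29 ± 0.027 and 0.38 ± 0.026, and these values became -0.024 and -0.058 with the trend removed, so its direction rests on that choice. UQCRC2 changed by -0.16 ± 0.019 in GFP-low cells on the log2 scale, or -0.065 without the trend. UQCRH, the hinge protein, rose by 0.10 ± 0.024 in GFP-high cells, or 0.26 with the trend removed, and its near-copy UQCRHL held 1.45% to 1.88% of the length-adjusted level of the pair, with reads that the counting could have split between them.

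Complex IV, cytochrome c oxidase, had 9 of its 12 tested members higher under FX1 in GFP-high cells, and the other 3 passed in neither direction. In GFP-low cells 6 rose and 3 fell. Once the GC and length trend was removed, 11 of the 12 rose in GFP-high cells, and 10 rose and 1 fell in GFP-low cells.

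COX8A, a small transmembrane subunit (ENSG00000176340.4, hg38 chromosome 11, 63974620 to 63976543, plus strand), had the largest rise of the complex in GFP-high cells. It read 38.9, 38.9 and 39.6 CPM with DMSO and 49.04, 53.9 and 49.9 CPM with FX1 in GFP-high cells, and 52.9, 50.6 and 53.5 CPM with DMSO and 58.3, 61.3 and 58.7 CPM with FX1 in GFP-low cells. GFP-high DMSO libraries were the lowest of the 4 groups and GFP-low FX1 libraries the highest. The FX1 effects were 0.38 ± 0.041 (edgeR adjusted p = 7.2e-17) and 0.18 ± 0.038 (edgeR adjusted p = 5e-06), and 35.4% of its exon bases overlap another gene on the same strand. COX5B, a subunit on the matrix side, rose by 0.37 ± 0.033 and 0.28 ± 0.032, from 59.4, 60.1 and 60.7 CPM to 76.5, 78.3 and 78.3 CPM in GFP-high cells.

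COX6A1, the form of subunit 6A made outside striated muscle (ENSG00000111775.3, hg38 chromosome 12, 120438090 to 120440737, plus strand), rose in both gates. It read 66.3, 65.4 and 68.5 CPM with DMSO and 78.1, 77.98 and 82.5 CPM with FX1 in GFP-high cells, and 75.8, 71.4 and 73.1 CPM with DMSO and 95.6, 99.5 and 94.2 CPM with FX1 in GFP-low cells. FX1 changed its level by 0.26 ± 0.033 and 0.40 ± 0.031, and after GC and length adjustment the values were 0.54 and 0.85. The difference between gates of 0.14 ± 0.045 (edgeR adjusted p = 0.0096) was 0.13 (DESeq2 adjusted p = 0.062) with DESeq2 and 0.073 (edgeR adjusted p = 0.27) without GFP-high DMSO replicate 3.

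COX7A2L, which joins complexes III and IV into supercomplexes (ENSG00000115944.15, hg38 chromosome 2, 42333546 to 42425088, minus strand), fell in GFP-low cells. It read 125, 129 and 127 CPM with DMSO and 104, 109.6 and 106 CPM with FX1 there, and 122, 119 and 118 CPM with DMSO and 123, 120.0 and 124 CPM with FX1 in GFP-high cells. The GFP-low FX1 libraries were the lowest of the 12. The log2 change was -0.25 ± 0.026 (edgeR adjusted p = 1.4e-18) in GFP-low and 0.037 ± 0.026 (edgeR adjusted p = 0.2) in GFP-high cells, a difference of -0.29 ± 0.037 (edgeR adjusted p = 1.4e-12). Adjusted for GC and length, the GFP-low change was -0.11. COX7C, a small membrane subunit, rose by 0.066 ± 0.021 in GFP-high cells, or 0.038 (edgeR adjusted p = 0.088) where 50 counts in 3 libraries were required. It was lower with FX1 in GFP-low cells, at -0.10 ± 0.022, and that value became 0.30 without the trend.

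COX4I1, the form of subunit 4 made in most tissues, held most of the level it shares with its isoform COX4I2. Per kilobase of exon, COX4I2, the form known from lung and low oxygen, made up 9.75% ± 1.06 of the sum with COX4I1 (SD, n = 3) with DMSO and 10.8% ± 0.709 with FX1 in GFP-high cells. In GFP-low cells it made up 14.8% ± 1.94 with DMSO and 12.7% ± 2.27 with FX1. COX4I2 was higher in GFP-low than in GFP-high cells under DMSO by 0.66 ± 0.13 on the log2 scale (edgeR adjusted p = 4.1e-06). Its rise under FX1 in GFP-high cells, 0.30 ± 0.13 (edgeR adjusted p = 0.04), was 0.31 (DESeq2 adjusted p = 0.08) with DESeq2, and it lost its call without GFP-high DMSO replicate 1 or 3 or GFP-high FX1 replicate 2 or 3 (adjusted p = 0.12, 0.15, 0.12 and 0.075). COX6B1 rose by 0.24 ± 0.028 and 0.22 ± 0.028, COX4I1 by 0.15 ± 0.018 and 0.13 ± 0.018, and COX7A2 by 0.20 ± 0.017 and 0.13 ± 0.017, or 0.44 and 0.50 after GC and length adjustment. Without any single GFP-high DMSO library the GFP-low values were 0.085 for COX4I1 and 0.087 to 0.088 for COX7A2, and the reason was not tested. COX7B was at 0.0049 and 0.0079 and passed the threshold in neither gate.

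Complex V, the ATP synthase, had 11 of its 20 members higher under FX1 and 4 lower in GFP-high cells, and 5 higher and 8 lower in GFP-low cells. The balance in GFP-low cells turned once the GC and length trend was removed, to 9 higher and 6 lower, and in GFP-high cells it was then 15 higher and 2 lower. The summed level of its members, in TMM-scaled CPM, went from 3136 ± 9.70 to 3475 ± 12.6 CPM (SD, n = 3) with FX1 in GFP-high cells. In GFP-low cells it went from 3242 ± 12.6 to 3170.4 ± 15.95 CPM. As a mean share of all counts, without TMM scaling, the same genes went from 0.291% to 0.345% in GFP-high cells. That share went from 0.331% to 0.337% in GFP-low cells, so the direction of the GFP-low sum rests on the scaling. For complex I the sum went from 2294 ± 12.7 to 2515 ± 8.94 CPM in GFP-high cells and from 2298 ± 0.858 to 2419 ± 15.6 CPM in GFP-low cells. For complex IV it went from 1526 ± 10.4 to 1682 ± 16.4 CPM and from 1502 ± 1.21 to 1579.7 ± 12.4 CPM. The complex III sum was lower with FX1, at 1146 ± 3.702 against 1172 ± 19.1 CPM in GFP-high cells and 1076 ± 9.21 against 1097 ± 9.36 CPM in GFP-low cells. UQCRB alone fell by more than this sum, from 378 to 264 CPM in GFP-high and from 274 to 204 CPM in GFP-low cells. As a share of all counts, complex III went up with FX1, from 0.109% to 0.114% in GFP-high and from 0.112% to 0.114% in GFP-low cells. The complex II sum went from 300.3 ± 1.26 to 317 ± 2.48 CPM in GFP-high cells and from 293 ± 4.51 to 275 ± 2.24 CPM in GFP-low cells. These sums weight genes by their level.

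**Figure D2:**
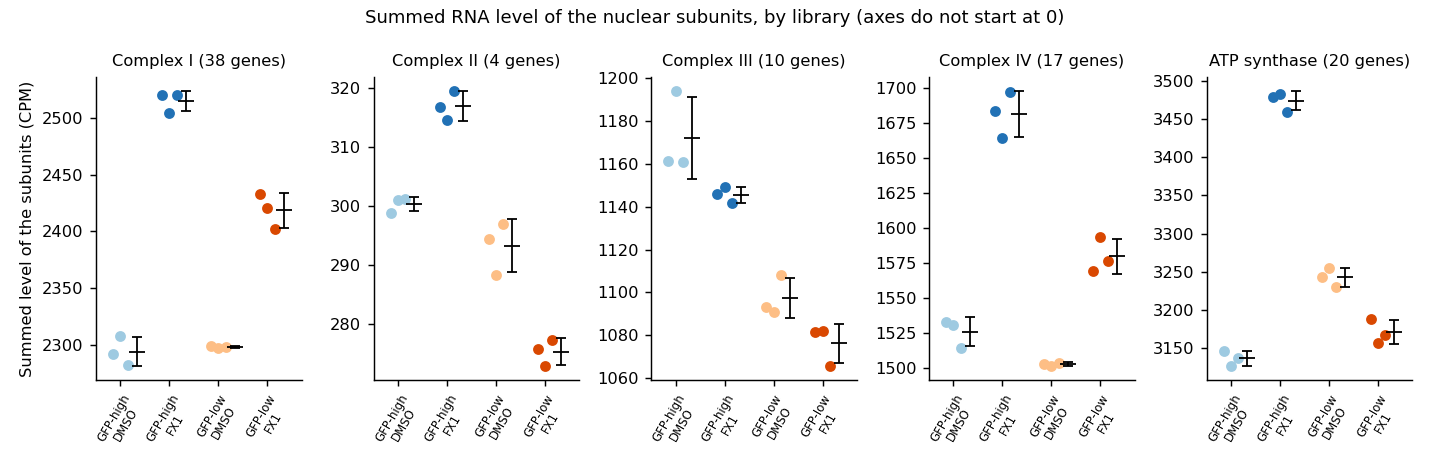
Summed TMM-scaled CPM of the nuclear subunits of each complex (vertical axes, not starting at 0) is shown for each library in the 4 groups. The complex V sum stood at 3460 to 3484 CPM in the GFP-high FX1 libraries, while the GFP-low FX1 libraries lay at 3157 to 3188 CPM, below the GFP-low DMSO libraries. As a share of all counts, which is not plotted, the GFP-low mean was 0.331% with DMSO and 0.337% with FX1.

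The catalytic beta subunit ATP5F1B (ENSG00000110955.9, hg38 chromosome 12, 56638175 to 56645984, minus strand) had the lowest p of all members for the difference between gates. In GFP-high cells it read 759, 738 and 754 CPM with DMSO and 921, 909.7 and 905 CPM with FX1. Its level in GFP-low cells was 866, 880.2 and 869 CPM with DMSO and 869, 864 and 868 CPM with FX1. FX1 libraries were above DMSO libraries in GFP-high cells, and the groups overlapped in GFP-low cells. The log2 change was 0.28 ± 0.013 (edgeR adjusted p = 1.1e-58) in GFP-high and -0.0080 ± 0.013 (edgeR adjusted p = 0.59) in GFP-low cells, a difference of -0.29 ± 0.018 (edgeR adjusted p = 3.3e-38). Without GFP-high DMSO replicate 1, 2 or 3, the GFP-low value was -0.052 each time (edgeR adjusted p = 0.00015, 0.00014 and 0.0002). ATP5F1D, the delta subunit of the central stalk, rose by 0.30 ± 0.029 and 0.33 ± 0.027. Its transcript has 63.9% GC, and with the trend removed the values were 0.021 (edgeR adjusted p = 0.52) and -0.060.

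Subunit c of the rotor comes from ATP5MC1, ATP5MC2 and ATP5MC3, whose mature proteins are identical. ATP5MC1 (ENSG00000159199.14, hg38 chromosome 17, 48892765 to 48895871, plus strand) read 45.2, 42.5 and 42.5 CPM with DMSO and 72.8, 74.4 and 78.5 CPM with FX1 in GFP-high cells, and 56.6, 54.7 and 55.97 CPM with DMSO and 75.5, 79.3 and 77.4 CPM with FX1 in GFP-low cells. FX1 libraries exceeded DMSO libraries in both gates, and the FX1 groups of the gates overlapped. The log2 changes were 0.80 ± 0.037 (edgeR adjusted p = 1.8e-57) and 0.47 ± 0.035 (edgeR adjusted p = 1.1e-30). ATP5MC3 (ENSG00000154518.10, hg38 chromosome 2, 175176258 to 175181710, minus strand) rose from 169.9, 166 and 170.4 CPM to 239, 235 and 235 CPM in GFP-high cells and from 177, 180.0 and 175 CPM to 207, 206 and 203 CPM in GFP-low cells, or by 0.48 ± 0.020 and 0.21 ± 0.020 on the log2 scale, with 0.38 in GFP-low cells after GC and length adjustment. ATP5MC2 changed by -0.12 ± 0.027 in GFP-high cells on that scale and was at -0.040 ± 0.026 (edgeR adjusted p = 0.17) in GFP-low cells.

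The shares of ATP5MC1 and ATP5MC2 among the 3 c-subunit messages differed between DMSO and FX1 by more than their SD in both gates. Per kilobase of exon, ATP5MC1 made up 18.5% ± 0.541 (SD, n = 3) of the sum in GFP-high DMSO and 24.6% ± 1.02 in GFP-high FX1, and 21.8% ± 0.380 and 26.3% ± 0.504 in the GFP-low groups. ATP5MC2 made up 33.01% ± 0.469 and 23.3% ± 0.830 in the GFP-high groups, and 31.5% ± 0.147 and 26.6% ± 0.179 in the GFP-low groups. ATP5MC3 was the largest share throughout, at 48.5% ± 0.279, 52.05% ± 0.394, 46.7% ± 0.525 and 47.1% ± 0.372 in the same order.

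**Figure D3:**
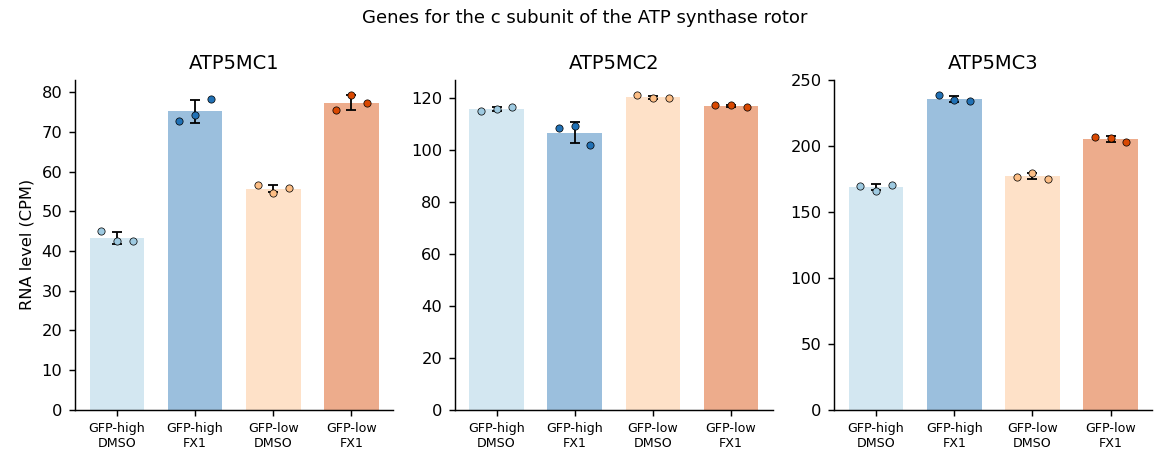
CPM of ATP5MC1, ATP5MC2 and ATP5MC3 (vertical axes start at 0) is shown for each library in the 4 groups, with the group mean. ATP5MC1 and ATP5MC3 are higher with FX1 in both gates, by 0.80 and 0.48 on the log2 scale in GFP-high cells, while ATP5MC2 changes by -0.12 there.

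The peripheral stalk, which holds the catalytic head still against the rotor, had 4 members. In GFP-high cells 2 rose and 1 fell under FX1, in GFP-low cells 3 fell and 1 did not pass, and the FX1 effect was lower in GFP-low cells for all 4. ATP5PO, the stalk subunit that grips the head, read 54.4, 57.95 and 59.9 CPM with DMSO and 47.5, 46.2 and 50.2 CPM with FX1 in GFP-low cells, and 55.4, 55.8 and 51.1 CPM with DMSO and 54.5, 54.1 and 56.3 CPM with FX1 in GFP-high cells. Its log2 FX1 effect was -0.26 ± 0.039 (edgeR adjusted p = 2.2e-10) in GFP-low and 0.020 ± 0.038 (edgeR adjusted p = 0.65) in GFP-high cells, and -0.13 and 0.12 after GC and length adjustment. With that adjustment all 4 stalk genes rose in GFP-high cells, ATP5PB among them at 0.048 in place of -0.056, and in GFP-low cells 2 fell, ATP5PD rose by 0.081 and ATP5PB was at -0.021 (edgeR adjusted p = 0.32). The FX1 effect stayed lower in GFP-low cells for all 4.

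ATP5MF and ATP5MG, subunits f and g of the membrane part, rose in GFP-high and fell in GFP-low cells. ATP5MG (ENSG00000167283.8, hg38 chromosome 11, 118401606 to 118431496, plus strand) read 79.4, 79.04 and 82.04 CPM with DMSO and 102, 101 and 101 CPM with FX1 in GFP-high cells. GFP-low libraries read 88.6, 88.97 and 90.6 CPM with DMSO and 85.7, 78.5 and 79.2 CPM with FX1. GFP-high FX1 libraries were the highest of the 12. The FX1 effects were 0.34 ± 0.030 and -0.13 ± 0.030, and with the trend removed ATP5MG rose in both gates, by 0.53 and 0.31. ATP5MF changed by 0.12 ± 0.025 and -0.24 ± 0.026, and by 0.10 and -0.32 with the trend removed.

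ATP5IF1, the inhibitor that stops the enzyme from running backwards (ENSG00000130770.18, hg38 chromosome 1, 28236109 to 28246906, plus strand), read 81.00, 82.5 and 78.9 CPM with DMSO and 71.2, 69.1 and 67.9 CPM with FX1 in GFP-high cells. In GFP-low cells it read 61.1, 61.6 and 60.4 CPM with DMSO and 59.8, 60.99 and 58.2 CPM with FX1. GFP-high DMSO libraries were the highest group. Its log2 FX1 effect was -0.22 ± 0.033 (edgeR adjusted p = 3.7e-10) in GFP-high and -0.032 ± 0.035 (edgeR adjusted p = 0.43) in GFP-low cells, a difference of 0.19 ± 0.048 (edgeR adjusted p = 0.00058), or 0.12 (edgeR adjusted p = 0.054) without GFP-high DMSO replicate 2. Under DMSO it was lower in GFP-low cells, with a log2 difference of -0.41 ± 0.034 (edgeR adjusted p = 1.5e-24).

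The difference between the FX1 effects was tested as an interaction in the same model. The FX1 effect was lower in GFP-low cells for 33 members and higher for 11, against 31.3% of all genes called, 14.8% higher and 16.5% lower. The median difference was -0.066 over the members and 0.024 over all genes. Where 50 counts in 3 libraries were required, it was lower for 29 of 82 members and higher for 14, against 43.8% of all genes called. Complex V had 13 lower and 1 higher, complex I 9 lower and 6 higher, complex IV 5 lower and 1 higher, complex III 4 lower and 2 higher, and complex II 2 lower and 1 higher. After GC and length adjustment complex IV had 3 lower and 4 higher, which turned its balance, and complex V 11 lower and 2 higher. The split moved with the scaling: without mitochondrial-genome genes and genes above 1% of counts it was 41 lower and 6 higher. Without GFP-high DMSO replicate 1, 2 or 3 it was 41, 42 or 39 lower and 5, 4 or 6 higher. The differences of CYC1, UQCRB, UQCRH, COX7A2 and NDUFA11 passed the threshold at 0.091, 0.091, -0.095, -0.067 and -0.24, and each lost its call under at least 1 other setting, with adjusted p = 0.19 and 0.052 with DESeq2 for the first pair and 0.059, 0.11 and 0.065 by edgeR without the low-count filter for the other 3.

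Between the gates under DMSO, 31 members were higher in GFP-low cells and 25 lower, against 46.1% of all genes called, 21.7% higher and 24.4% lower. The median was 0.023, against 0.025 over all genes. Where 50 counts in 3 libraries were required, 34 of 82 members were higher and 25 lower, against 60.5% of all genes called. NDUFA11 at 0.61 ± 0.072, SDHC at 0.53 ± 0.086 and COX8A at 0.42 ± 0.042 were higher in GFP-low cells, and UQCRB at -0.47 ± 0.017, NDUFA5 at -0.44 ± 0.027 and COX7B at -0.32 ± 0.030 were lower. Adjusted for GC and length, the split was 38 higher and 18 lower, with NDUFA11 at 0.39 and COX7B at -0.16.

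Under FX1, 19 members were higher and 40 lower in GFP-low cells, against 56.9% of all genes called, 30.2% higher and 26.7% lower. The median was -0.071 over the members and 0.079 over all genes. Where 50 counts in 3 libraries were required, 24 of 82 members were higher and 33 lower, against 73.5% of all genes called. NDUFC2 at -0.84 ± 0.051, NDUFA5 at -0.82 ± 0.028, NDUFB5 at -0.54 ± 0.035 and SDHD at -0.50 ± 0.025 on the log2 scale were lower in GFP-low cells, and NDUFA13 at 0.68 ± 0.11, NDUFA11 at 0.37 ± 0.056 and ATP5F1D at 0.30 ± 0.026 were higher. All 4 peripheral stalk genes and 4 of the 5 small membrane subunits of complex V were lower. After the GC and length trend was taken out, the split was 25 higher and 24 lower, and NDUFA11 and ATP5F1D were at 0.016 and -0.048. NDUFC2, NDUFA5, NDUFB5, SDHD and NDUFA13 had the same direction as before, at -0.73, -0.41, -0.26, -0.18 and 0.41. Of the stalk genes ATP5PD was then at 0.055 (edgeR adjusted p = 0.14) and ATP5PO at -0.057 (edgeR adjusted p = 0.21), and the small membrane subunits ATP5MG and ATP5MJ were higher in GFP-low cells, by 0.12 and 0.10.

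Transcript GC content moved with the gate comparison under FX1 across members and across all genes. Spearman's rho between GC content and this log2 difference was 0.619 over the 84 members and 0.520 over the 17557 genes with a GC value; members share their libraries, so this is a description. Of the 29 members under 45% GC, 1 was higher and 22 were lower in GFP-low cells under FX1, and of the 20 at 55% or more, 12 were higher and 1 was lower. Removing the trend kept 28 of the 59 calls, turned 9 and lost 22. For the FX1 effect rho over the members was 0.261 in GFP-high and 0.502 in GFP-low cells. Of the 61 calls in each gate, 52 were kept, 2 turned and 7 lost in GFP-high cells, and 48 were kept, 10 turned and 3 lost in GFP-low cells.

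**Figure D4:**
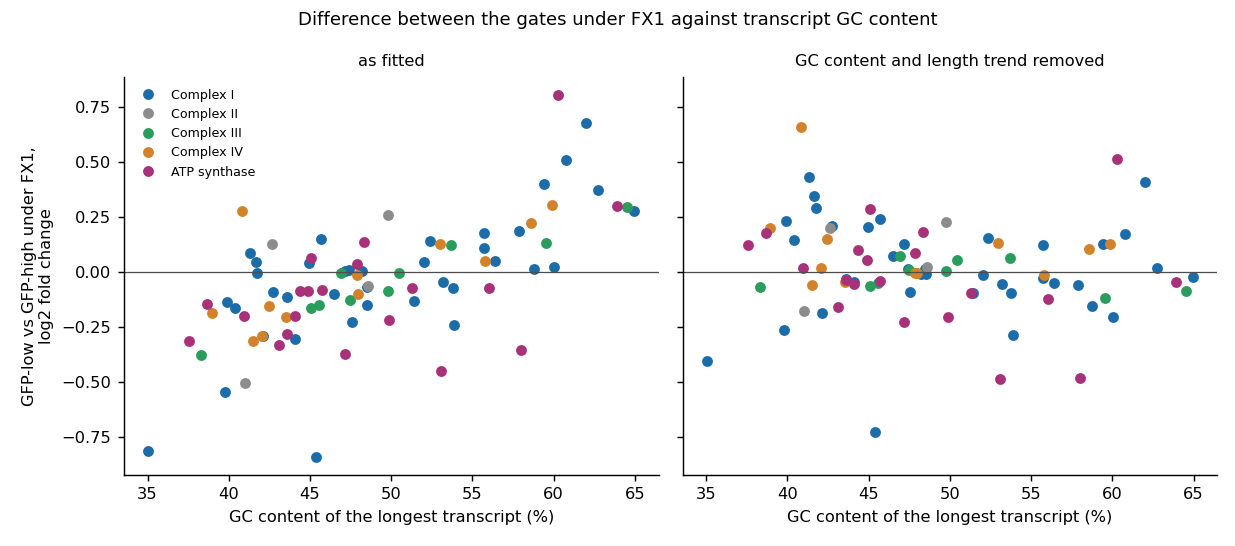
The log2 difference between GFP-low and GFP-high cells under FX1 (vertical axes) is plotted for each member against the GC content of its longest transcript (horizontal axes), before and after the trend over all genes was removed. Before removal 22 of the 29 members under 45% GC were called lower in GFP-low cells; over all members rho was 0.619 before and -0.161 after.

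In their median FX1 effect, the 13 subunits encoded in the mitochondrial genome differed more from the nuclear ones in GFP-high than in GFP-low cells. In GFP-high cells all 13 fell under FX1, with a median log2 change of -1.09, while the 84 nuclear members had a median of 0.16. In GFP-low cells the median of the 13 was -0.031, against 0.060 for the nuclear members. There 5 of the 13 passed as higher and 6 as lower, or 12 and 1 after GC and length adjustment. All 13 had a higher FX1 effect in GFP-low than in GFP-high cells, with a median difference of 1.08. Their share of all counts was 7.77% ± 0.0318 (SD, n = 3) with DMSO and 4.09% ± 0.0394 with FX1 in GFP-high cells. It was 4.73% ± 0.0639 with DMSO and 5.05% ± 0.0369 with FX1 in GFP-low cells, so the GFP-high group with DMSO stood above the other 3. Once the GC and length trend was removed, MT-ATP8, a small ATP synthase subunit with the largest fall in GFP-high cells, went from -1.67 ± 0.031 to -1.07 there and from -0.53 ± 0.033 to 0.15 in GFP-low cells.

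**Figure D5:**
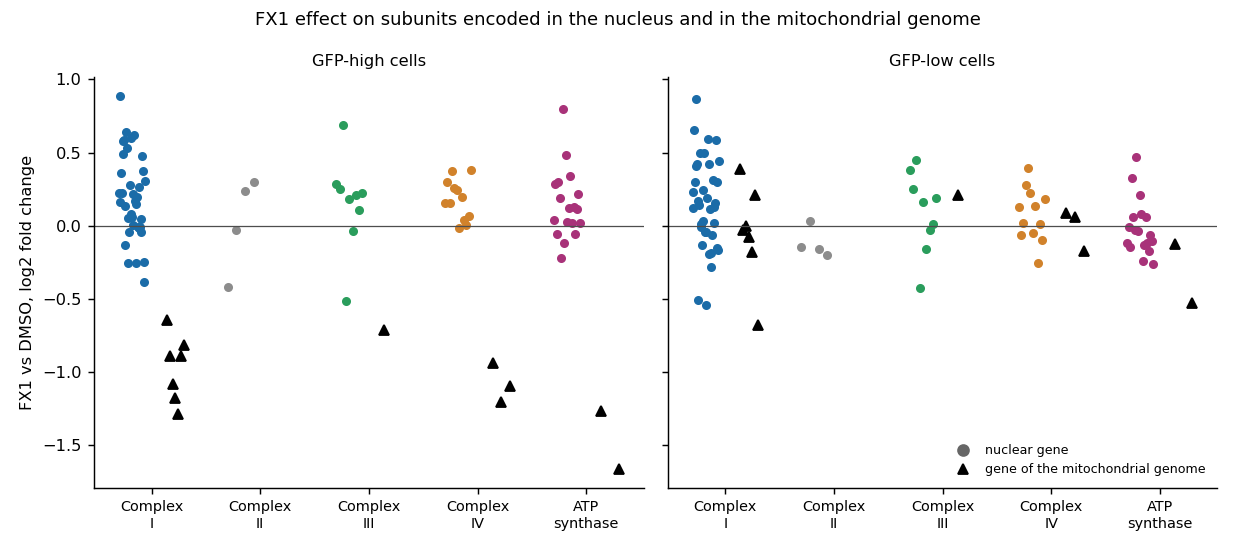
The FX1 effect (vertical axes, log2 fold change) is shown in GFP-high and GFP-low cells for each nuclear member and each of the 13 mitochondrially encoded subunits, by complex. In GFP-high cells all 13 mitochondrially encoded subunits lie below 0, with a median of -1.09, and in GFP-low cells their median is -0.031.

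Genes that build or serve the complexes were described by lists of their own, here and in the next paragraph. Over all genes tested, 33.8% were higher and 34.6% lower in GFP-high cells, and 33.7% higher and 34.3% lower in GFP-low cells. Whether a list differs from all genes was not tested, and splits near these shares are not particular to a list. Of 19 complex I assembly factors, 14 rose and 2 fell in GFP-high cells and 13 rose and 3 fell in GFP-low cells. TMEM126A, which helps to build the membrane arm, rose by 0.96 ± 0.052 in GFP-high cells, and NDUFAF3, an early assembly factor, by 0.59 ± 0.043 in GFP-low cells, or 0.16 after GC and length adjustment. Of 26 complex IV assembly factors, 13 rose and 6 fell in GFP-high cells and 7 rose and 9 fell in GFP-low cells (12 and 5 after GC and length adjustment), led by COA3, a regulator of COX1 translation, at 0.97 ± 0.088 and 0.85 ± 0.088. Of 6 ATP synthase assembly factors, 3 rose and 1 fell in each gate, and ATPAF2, a chaperone of the alpha subunit, rose by 1.00 ± 0.053 and 1.03 ± 0.052. Of 9 complex III factors, 4 rose and 3 fell in GFP-high cells and 4 rose and 4 fell in GFP-low cells, with BCS1L, which inserts the Rieske protein, at 0.70 ± 0.042 and 0.78 ± 0.041. Of 4 complex II factors, 1 rose and 2 fell in GFP-high cells and 2 rose and 2 fell in GFP-low cells, with SDHAF4, which binds SDHA before assembly, at -0.90 ± 0.070 and -0.97 ± 0.071.

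CYCS, the electron carrier cytochrome c, rose in GFP-high cells and fell in GFP-low cells, with log2 changes of 0.29 ± 0.013 and -0.37 ± 0.014, a difference of -0.66 ± 0.020 (edgeR adjusted p = 4.3e-90); with the trend removed the GFP-low value was -0.20. Of 16 regulators of respiratory genes, 8 rose and 6 fell in GFP-high cells and 5 rose and 6 fell in GFP-low cells, beside the all-gene shares given above. PPARGC1B, a coactivator of mitochondrial biogenesis, rose by 0.96 ± 0.021 and 1.08 ± 0.021, and POLRMT, the RNA polymerase of the mitochondrial genome, by 1.18 ± 0.032 in GFP-low cells, or 0.57 with the trend removed. GABPA, a subunit of the ETS factor GABP, had the largest difference between gates among them, -0.46 ± 0.045 (edgeR adjusted p = 1.1e-18), or -0.24 with the trend removed. Of 13 citric acid cycle genes, 7 rose and 4 fell in GFP-high cells and 6 rose and 5 fell in GFP-low cells (3 and 6 after GC and length adjustment, and 3 rises without GFP-high DMSO replicate 1, 2 or 3), with SUCLG2, a subunit of succinyl-CoA ligase, at -1.13 ± 0.044 and -1.18 ± 0.045. Of the 3 tested genes of the hypoxia-linked subunit list, CHCHD2 fell in both gates, with values of -0.13 ± 0.017 and -0.24 ± 0.017 on the log2 scale, COX4I2 rose in GFP-high cells as given above, and NDUFA4L2 rose in GFP-low cells by 0.45 ± 0.17 (edgeR adjusted p = 0.018). The NDUFA4L2 value was 0.078 (edgeR adjusted p = 0.71) after GC and length adjustment, and lost its call without GFP-low DMSO or FX1 replicate 2 (edgeR adjusted p = 0.059 and 0.067).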

How the data were processed

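Total RNA of 12 Raji libraries, 3 in each of 4 groups, was rid of ribosomal RNA before a KAPA RNA HyperPrep library step (labels' protocols). FastQC, STAR, Subread's featureCounts, R 4.2.1 and the hg38 build are named per the submitters' processing notes. What the authors deposited is a table of raw counts for each gene over its combined exons, per the file headers. The other versions, the annotation release and the strand setting are not given in the sources used here, so overlapping and antisense genes are uncertain. Of 60710 lines, 3 that formed a broken record were dropped, and 60506 of the 60707 genes had a symbol.

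The test of these counts used edgeR 4.0.16 (R 4.3.3): filterByExpr (17859 genes), TMM scaling, a robust quasi-likelihood fit to all 12 libraries with 4 group terms and 8 residual degrees of freedom, and Benjamini-Hochberg adjustment over all genes with a threshold of 0.05. The biological coefficient of variation was 1.67%. Levels are TMM-scaled CPM, and changes are log2 values with standard errors. The members and gene lists were chosen with earlier results of these data known. Members given with values in every library are, per complex and FX1 comparison, up to 2 called rises and 2 called falls averaging 2 or more in log2 CPM, paralog sets, ATP5IF1, the SDH genes, CYC1, NDUFA4 and the 3 lowest interaction p-values. Of each gene list at most the 2 largest called changes per comparison are named.

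Alternatives were DESeq2 1.42.0 and its size factors, no filter, a minimum of 50 counts in 3 libraries, fits to just the compared groups, a replicate block, scaling without mitochondrial-genome genes and genes above 1% of counts, removal of the trend with GC content and longest-transcript length (17557 genes, 98.3%), and leaving out each library. PCR reads carry no molecular identifiers, so counting limits cover counting error only.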

Additional observations from a re-analysis of the deposited data

Results flagged for a closer look

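In 10 members FX1 moved the RNA in opposite directions in the gates, each direction passing edgeR's threshold, and the difference between gates passed it too. NDUFB8, NDUFC1, NDUFC2, ATP5F1A, ATP5MK and ATP5PF among them were named after their values were seen. The differences of log2 FX1 effects, GFP-low minus GFP-high, were -0.50 for SDHD, -0.48 for NDUFC2, -0.47 for ATP5MG, -0.36 for NDUFB8, -0.36 for ATP5MF, -0.32 for ATP5PF, -0.24 for ATP5MK, -0.16 for COX7C and -0.16 for ATP5F1A, all higher with FX1 in GFP-high cells and lower in GFP-low cells. NDUFC1, an accessory subunit of the complex I membrane arm, went the other way, with a difference of 0.37. Complex V supplied 5 of the 10, namely the alpha subunit ATP5F1A, the stalk subunit ATP5PF and the small membrane subunits ATP5MF, ATP5MG and ATP5MK. Opposite moves of this kind were not counted over all genes tested, of which 31.3% passed for the difference between gates. Whether 10 is many for a set of this size is therefore not known.

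NDUFC2, a membrane-arm subunit of complex I, read 33.5, 34.4 and 32.4 CPM with DMSO and 36.3, 38.9 and 40.1 CPM with FX1 in GFP-high cells, and 24.97, 27.2 and 26.2 CPM with DMSO and 22.1, 20.2 and 21.9 CPM with FX1 in GFP-low cells. Its log2 changes were 0.20 ± 0.049 and -0.29 ± 0.055, and 18.6% of its exon bases overlap another gene on the same strand. For NDUFB8 that share was larger, at 33.8%, or 48.5% with either strand counted. With either strand counted it was 29.6% for NDUFC1. For ATP5PF the overlap, with JAM2 and GABPA, was on the opposite strand only, at 37.3%. The strand setting of the counting is not given, and the part of these overlaps in the opposite moves was not tested. ATP5PF read 80.8, 85.9 and 86.9 CPM with DMSO and 102, 98.7 and 93.1 CPM with FX1 in GFP-high cells, and 76.6, 77.1 and 78.4 CPM with DMSO and 70.8, 71.4 and 73.6 CPM with FX1 in GFP-low cells. After GC and length adjustment the GFP-low change of SDHD became 0.14, of ATP5MG 0.31, of COX7C 0.30 and of ATP5MK 0.10, so these 4 no longer moved in opposite directions. ATP5F1A's rise in GFP-high cells, 0.039, was 0.012 (edgeR adjusted p = 0.4) where 50 counts in 3 libraries were required. NDUFB8's rise there, 0.17, was 0.13 (edgeR adjusted p = 0.053) without GFP-high FX1 replicate 1. NDUFC1's rise in GFP-low cells, 0.12, was 0.10 (DESeq2 adjusted p = 0.11) with DESeq2, and without GFP-high DMSO replicate 1, 2 or 3 it was 0.070 each time (edgeR adjusted p = 0.24 each time).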

How the results depend on the processing

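Removing the trend of log2 changes with transcript GC content and length had the widest effect. It left 7 members lower under FX1 in GFP-high cells in place of 11, and 24 lower in GFP-low than in GFP-high cells under FX1 in place of 40. It turned the sign of 34 values of named members, of which 26 passed the threshold before or after. Those 26 were, in the FX1 effect in GFP-high cells, CYC1 at -0.024 and SDHB at 0.065. In the FX1 effect in GFP-low cells these were ATP5F1D at -0.060, ATP5MG at 0.31, COX7C at 0.30, CYC1 at -0.058, NDUFB1 at 0.26 and SDHD at 0.14. In the gate difference under DMSO these were ATP5MF at -0.0695, COX7A2 at 0.086, COX7C at 0.16, CYC1 at -0.050 and UQCRC2 at 0.054. In the gate difference under FX1 these were ATP5F1D at -0.048, ATP5MC3 at 0.018, ATP5MG at 0.12, COX7A2 at 0.15, COX7C at 0.20, CYC1 at -0.085, NDUFA4 at 0.15, NDUFB1 at 0.23, SDHB at 0.024 and UQCRH at 0.0042. In the interaction these were COX7A2 at 0.064, COX7C at 0.046 and CYC1 at -0.035. The cause was not tested. The count of members with a higher FX1 effect in GFP-low cells, 11, was 7 with DESeq2, 7 without the low-count filter, 6 without mitochondrial-genome genes and genes above 1% of counts, and 4 to 11 when each library was left out in turn, the lower values arising without a GFP-high DMSO library. The other counts over all members stayed within 1.5 times their reported value under every alternative run: when each library was left out, members called were 59 to 62 for FX1 in GFP-high cells, 57 to 65 for FX1 in GFP-low cells, 52 to 57 between gates under DMSO, 54 to 60 under FX1 and 38 to 46 for the difference. Counts within single complexes moved further. Adjusted for GC and length, complex I had 3 in place of 5 falls in GFP-high cells, and complex IV 10 in place of 6 rises in GFP-low cells. Complex V had 5 rises in GFP-low cells and 3 with DESeq2, its size factors, the scaling without mitochondrial-genome genes or any GFP-high DMSO library left out, and its 4 falls in GFP-high cells were 2 without the low-count filter. Complex I had 5 falls in GFP-high cells and 8 with 50 counts in 3 libraries, and 9 lower differences that were 14 without GFP-high DMSO replicate 1 or 2. The 5 lower differences of complex IV were 8 and 9 without those libraries. Complex III had 2 higher differences and 0 with DESeq2. Correlations of same-numbered deviations lay between -0.0402 and 0.0194, so no shared effect of the replicate number was seen. They cannot show whether same-numbered libraries were paired, and the labels do not say. With the replicate block the difference of the FX1 effect had 43 members called, 10 higher and 33 lower, and of the named members only CYC1 lost a call, at 0.090 (edgeR adjusted p = 0.052). Depth limits COX6B2, COX8C and the other untested isoforms, and ATP5MGL, UQCRHL and COX4I2, whose standard errors are wide.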
